A study of Mus musculus with 23 samples.

Results

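The Toll-like receptors described here are 10 mouse genes, Tlr1 to Tlr9 and Tlr13, chosen by gene name. All 10 were listed in both deposited tables, out of 22524 genes in the table of vavCre libraries and 25700 genes in the table of Spic and CreERT2 libraries, and all 10 passed the filter on low values in each. The series holds 23 RNA-seq libraries of macrophages from C57BL/6 mice in 8 groups, each library made from 1000 sorted cells, and its title names PPARγ and the development of red pulp and erythroblastic island macrophages. From pups at day 7 there were 3 libraries of vavCre and 3 of WT red pulp macrophages of the spleen (RPM), and 3 of vavCre and 3 of WT bone marrow macrophages (BMM). The second table held 2 RPM libraries of Spic_KO pups and 3 of Spic_WT pups, also at day 7, and, from adults, 4 RPM libraries labelled TAM_CreERT2 and 2 labelled TAM_WT. Vav drives Cre in blood-forming cells and their progeny, and CreERT2 is a Cre recombinase that tamoxifen switches on; Spic encodes an ETS-family transcription factor that red pulp macrophages need. The labels name no floxed gene for the vavCre or CreERT2 mice, do not define TAM, give no dose or time, and do not say whether replicates came from separate animals, so p-values measure the spread between these libraries. The series' design text speaks of a small number of remaining cells that lack Pparg, without saying which libraries it means. No value used here measures a loss of cells or a deletion in Pparg. In sorted bulk samples, fewer cells of a type and less RNA per cell cannot be told apart.

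Toll-like receptors recognise conserved microbial molecules and start inflammatory signalling through the adaptors MyD88 and TRIF. At the cell surface, TLR2 pairs with TLR1 or TLR6 to bind bacterial lipopeptides, TLR4 with its partner MD-2 (Ly96) binds lipopolysaccharide, and TLR5 binds bacterial flagellin. In endosomes, TLR3 binds double-stranded RNA, TLR9 binds unmethylated CpG DNA, and TLR13, which humans lack, binds a bacterial ribosomal RNA sequence. TLR7, and TLR8 in humans, bind single-stranded RNA and its breakdown products there. The endosomal receptors reach their compartment with UNC93B1 and are cut by proteases before they signal. Red pulp macrophages clear aged red cells, and macrophages of erythroblastic islands support red cell formation, so both meet host nucleic acid and heme as well as microbes.

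By GENCODE vM21 on GRCm38, the members lie as single protein-coding genes with 2 adjacent pairs. Tlr1 (chr5:64924679-64933563) and Tlr6 (chr5:64952031-64960097) are 18.5 kb apart on the minus strand, and Tlr8 (chrX:167242696-167264329) and Tlr7 (chrX:167304929-167330558) are 40.6 kb apart on the minus strand. Tlr2 lies at chr3:83836272-83841767 on the minus strand and Tlr5 at chr1:182954788-182976044 on the plus strand. Tlr3 (chr8:45395665-45411080) overlaps an antisense gene, Gm45542, and no source used here says that reads were counted by strand, so reads of that pair cannot be told apart. The promoters of the 4 members that changed in the vavCre comparisons (Tlr1, Tlr2, Tlr5 and Tlr8) are printed below, from RefSeq on GRCm38.p6, 250 bases before to 50 after the annotated start, on the gene's own strand. The windows are Tlr1 chr5:64933509-64933808, Tlr2 chr3:83841559-83841858, Tlr5 chr1:182954538-182954837 and Tlr8 chrX:167264280-167264579; the RefSeq start of Tlr2 used here lies 159 bases from the outermost GENCODE start. Capitals mark a match to GAGGAA, the core of many ETS-factor sites, or to AGGTCA, a core motif of nuclear receptor sites, on either strand (TTCCTC and TGACCT are the reverse complements).
Tlr1: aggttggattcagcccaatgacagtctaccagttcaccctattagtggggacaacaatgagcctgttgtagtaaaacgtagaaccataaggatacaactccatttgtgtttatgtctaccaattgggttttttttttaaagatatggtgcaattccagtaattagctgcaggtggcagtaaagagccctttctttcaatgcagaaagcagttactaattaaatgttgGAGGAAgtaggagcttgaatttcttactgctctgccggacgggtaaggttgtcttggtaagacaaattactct
Tlr2: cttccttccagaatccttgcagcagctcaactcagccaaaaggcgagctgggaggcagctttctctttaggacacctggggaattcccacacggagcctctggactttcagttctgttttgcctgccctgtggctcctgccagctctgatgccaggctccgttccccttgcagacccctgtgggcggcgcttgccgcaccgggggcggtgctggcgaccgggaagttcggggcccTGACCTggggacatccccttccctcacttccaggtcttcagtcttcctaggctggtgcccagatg
Tlr5: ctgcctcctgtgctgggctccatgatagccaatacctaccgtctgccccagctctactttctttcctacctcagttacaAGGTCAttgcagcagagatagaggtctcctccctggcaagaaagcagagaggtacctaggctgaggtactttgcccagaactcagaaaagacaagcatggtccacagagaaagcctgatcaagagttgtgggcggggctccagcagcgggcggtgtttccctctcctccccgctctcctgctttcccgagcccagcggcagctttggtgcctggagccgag
Tlr8: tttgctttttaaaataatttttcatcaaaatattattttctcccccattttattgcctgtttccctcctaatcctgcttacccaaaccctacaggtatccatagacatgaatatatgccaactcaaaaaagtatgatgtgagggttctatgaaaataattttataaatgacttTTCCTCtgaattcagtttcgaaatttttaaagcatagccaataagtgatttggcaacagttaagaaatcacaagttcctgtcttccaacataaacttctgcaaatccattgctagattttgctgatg
Tlr1 holds GAGGAA from base -23 and Tlr8 holds it on the opposite strand from base -77. Tlr5 holds AGGTCA from base -171 and Tlr2 holds it on the opposite strand from base -15. GAGGAA occurred in 28.3% and AGGTCA in 16.3% of 32851 mouse promoters of the same length, so each single match is common. RefSeq promoters were at hand for 8 of the 10 members (not for Tlr4 and Tlr7), of which 4 held GAGGAA and 3 held AGGTCA.

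The deposited values were normalised read counts, and the whole reads behind them numbered 4262486 to 21744211 per library in the vavCre table and 692904 to 6289360 in the Spic and CreERT2 table. Levels were compared only within a table. Within groups of the vavCre table and among Spic_WT libraries, log2 values of replicate pairs correlated at 0.952 to 0.975, but the 2 Spic_KO libraries correlated at 0.842 and CreERT2 replicate 2, the shallowest library, at 0.836 to 0.854 with the other CreERT2 libraries. Macrophage markers were high in every group, with summed levels of 6 genes at 67324 to 71558 in vavCre RPM and 59752 to 67622 in WT RPM, and 50166 to 57565 in vavCre BMM and 42733 to 44525 in WT BMM. Spic was 931 and 1236 in Spic_KO libraries, against 1993 to 3110.0 in Spic_WT libraries. Pparg was 2496 to 4002 in vavCre RPM and 1550.0 to 2124 in WT RPM. In marrow it was 1813 to 2972 in vavCre BMM and 1601 to 1703 in WT BMM. Pparg was far lower in Spic_KO libraries, at 26.0 and 21.7, than in Spic_WT libraries, at 211 to 330.4. Among adults it was 182 to 261 in CreERT2 libraries and 92.3 and 168 in TAM_WT libraries. A count over a whole gene cannot show the loss of a part of it, so these values check no deletion.

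The per-library values of the 10 members in the vavCre table showed 3 kinds of behaviour. Tlr2 and Tlr5 were higher in vavCre macrophages of both tissues and Tlr1 in those of marrow, Tlr8 was lower, short of the threshold in spleen, and the abundant Tlr4, Tlr7 and Tlr13 were not called. A member was called where limma's Benjamini-Hochberg adjusted p over all genes was under 0.05. In spleen 2 of 10 members were called, Tlr2 and Tlr5, both higher, beside 5.52% of 15130 genes. In marrow 4 of 10 were called, Tlr1, Tlr2 and Tlr5 higher and Tlr8 lower, beside 7.81% of 15130 genes. The median log2 change over the 10 members was 0.41 in spleen and 0.34 in marrow, against -0.02 and -0.04 over all genes tested.

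**Figure D1:**
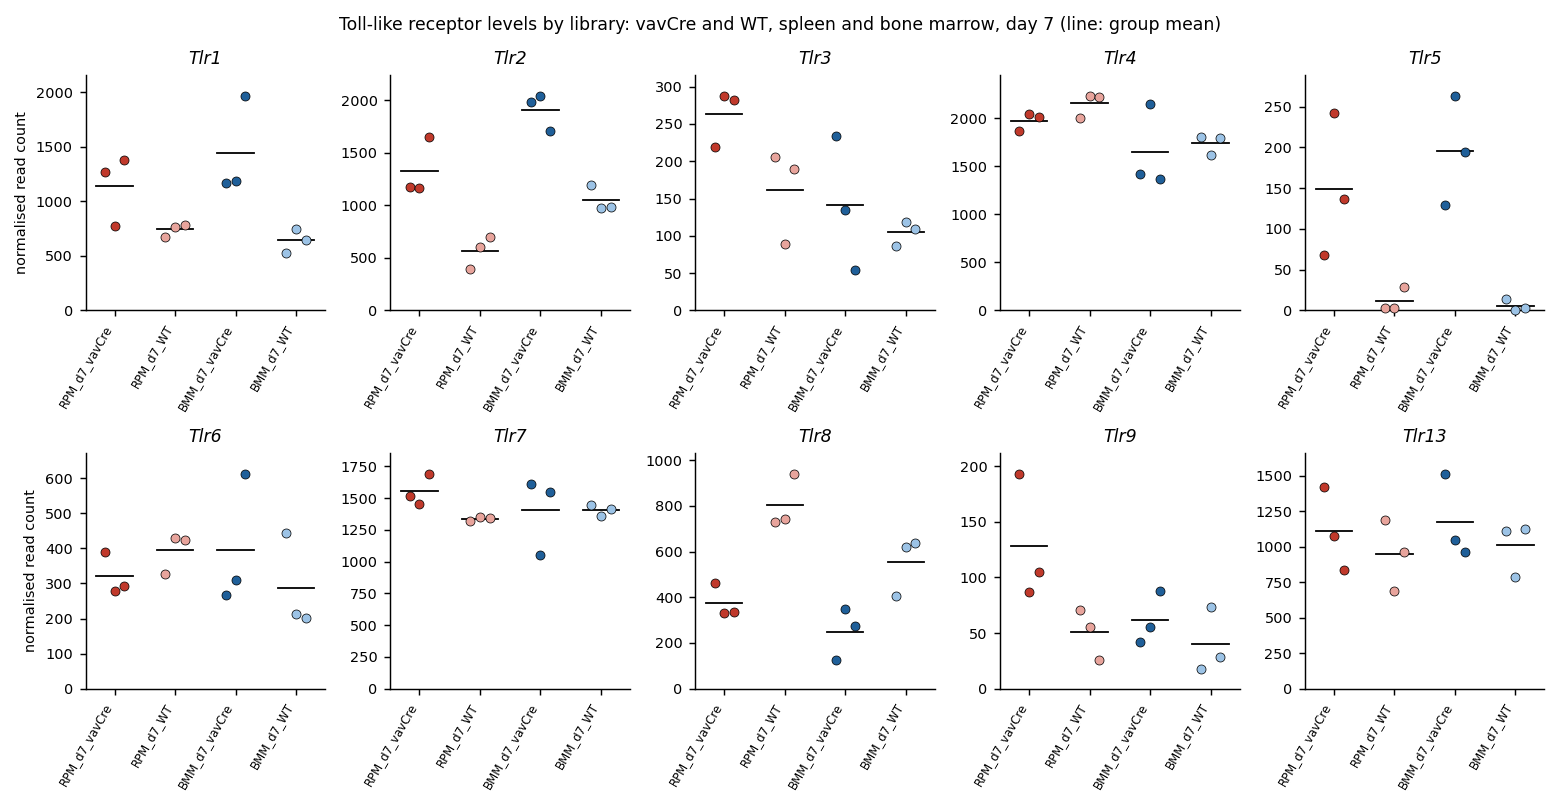
Normalised read count (y axis, from 0) of each Toll-like receptor in each library of RPM_d7_vavCre, RPM_d7_WT, BMM_d7_vavCre and BMM_d7_WT; points are libraries and lines are group means of 3 libraries. Tlr2 and Tlr5 lie higher in vavCre than in WT libraries of the same tissue with no overlap, Tlr8 lies lower with no overlap, and Tlr4 overlaps in both tissues.

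Tlr2, the shared subunit of the lipopeptide receptors, was higher in vavCre macrophages of both tissues. In spleen it had 1175, 1165 and 1649 normalised counts in vavCre libraries, against 398, 606 and 694 in WT libraries. In marrow it had 1982, 2040.0 and 1707 in vavCre libraries, against 1197, 974 and 987 in WT libraries. Every vavCre library lay above every WT library of its tissue, and the lowest vavCre spleen library was close to the highest WT marrow library. The log2 change was 1.25 ± 0.21 (SE) in spleen (limma adjusted p = 0.000767) and 0.86 ± 0.21 in marrow (limma adjusted p = 0.0148). The spleen call held under every alternative run, with adjusted p up to 0.00913, while the marrow call was lost without WT replicate 3 (0.82, adjusted p = 0.0557).

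Of the partners of TLR2, Tlr1 was called in marrow and Tlr6 in neither tissue; the difference between the changes of Tlr1 and Tlr6 was not tested. Tlr1, which pairs with TLR2 for triacylated lipopeptides, had 1172, 1182 and 1965 normalised counts in vavCre marrow libraries, against 529, 746 and 649 in WT marrow libraries. In spleen it had 1273, 770 and 1377 in vavCre libraries, against 677, 765 and 783 in WT libraries. The marrow groups were apart, while in spleen vavCre replicate 2 sat within the WT range. Tlr1 rose by 1.14 ± 0.24 on the log2 scale in marrow (limma adjusted p = 0.00569) and kept its call under every alternative, and its spleen change of 0.58 ± 0.24 did not pass (limma adjusted p = 0.228). Tlr6, its neighbour on chromosome 5 and the partner for diacylated lipopeptides, had 391, 278 and 294 in vavCre spleen libraries, against 328, 429.6 and 424 in WT spleen libraries. In marrow Tlr6 had 266, 309 and 611 in vavCre libraries, against 444, 214 and 201 in WT libraries. Its groups overlapped in both tissues, with log2 changes of -0.30 (95% interval -1.03 to 0.43) in spleen and 0.46 (-0.27 to 1.20) in marrow. Per kb of exon, the level of Tlr1 was 3.08 to 5.23 times that of Tlr6 in vavCre RPM, against 1.98 to 2.30 times in WT RPM, and 3.58 to 4.91 times in vavCre BMM, against 1.33 to 3.89 times in WT BMM.

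Tlr5, the flagellin receptor, was close to undetected in WT macrophages and clearly present in vavCre macrophages. In spleen it had 68.1, 242 and 136 normalised counts in vavCre libraries (111, 286 and 172 reads), against 2.42, 3.32 and 28.8 in WT libraries (4, 4 and 63 reads). In marrow it had 129.8, 263 and 195 in vavCre libraries (62, 217 and 86 reads), against 14.1, 0 and 3.13 in WT libraries (7, 0 and 3 reads). The groups did not overlap in either tissue, and WT spleen replicate 3 stood well above the other WT libraries. The log2 change was 4.12 ± 1.01 in spleen (limma adjusted p = 0.0186) and 5.57 ± 1.01 in marrow (limma adjusted p = 0.00156), on the log2(value + 1) scale; edgeR gave 3.64 and 5.34 and DESeq2 3.67 and 5.28 on recovered reads. The marrow call held under every alternative, with adjusted p from 8.9e-07 to 0.00888. The spleen call was lost without WT replicate 1 (adjusted p = 0.0959), WT replicate 2 (0.0862), vavCre replicate 2 (0.108) or vavCre replicate 3 (0.0701), and with a pseudocount of 0.1 (0.0764), though the log2 change stayed between 3.54 and 5.10 whichever library was left out. Even in vavCre cells Tlr5 was among the 3 lowest members per kb of exon, at 14.2 to 50.6 in spleen and 27.1 to 54.9 in marrow.

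Tlr4, the lipopolysaccharide receptor, kept a narrow range. It had 1870.0, 2038 and 2013 normalised counts in vavCre spleen libraries, against 2006, 2230.0 and 2220.0 in WT spleen libraries, and 1417, 2145 and 1369 in vavCre marrow libraries, against 1800.0, 1618 and 1798 in WT marrow libraries. The log2 change was -0.12 (95% interval -0.47 to 0.22) in spleen and -0.11 (-0.45 to 0.23) in marrow, so these libraries leave room for a change of up to 0.47 on the log2 scale. Per kb of exon, Tlr2 was 1.05 to 1.51 times Tlr4 in vavCre RPM, against 0.365 to 0.577 times in WT RPM, and 1.75 to 2.58 times in vavCre BMM, against 1.01 to 1.23 times in WT BMM.

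Among the endosomal receptors, Tlr8 was lower in vavCre macrophages of both tissues. In spleen it had 461.5, 332 and 337 normalised counts in vavCre libraries, against 728, 744 and 938 in WT libraries. In marrow it had 124, 347 and 274 in vavCre libraries, against 406, 618 and 639 in WT libraries. The groups did not overlap in either tissue. The log2 change was -1.10 ± 0.32 in spleen, just short of the threshold (limma adjusted p = 0.0554), and -1.25 ± 0.32 in marrow (limma adjusted p = 0.0212). On recovered reads, edgeR (adjusted p = 0.0241) and DESeq2 (0.00812) called the spleen change too. The marrow call was lost without WT replicate 2 (adjusted p = 0.0654), WT replicate 3 (0.0849) or vavCre replicate 1 (-0.82, 0.0907).

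Tlr7, which lies next to Tlr8 on the X chromosome and senses single-stranded RNA, was not called in either tissue. It had 1517, 1453 and 1688 normalised counts in vavCre spleen libraries, against 1320.0, 1352 and 1345 in WT spleen libraries, and 1610.0, 1056 and 1546 in vavCre marrow libraries, against 1448, 1363 and 1418 in WT marrow libraries. The log2 change was 0.21 (95% interval -0.14 to 0.56) in spleen, where the groups did not overlap, and -0.03 (-0.38 to 0.32) in marrow; the difference between the changes of Tlr7 and Tlr8 was not tested. Per kb of exon, Tlr8 was 0.227 to 0.346 of Tlr7 in vavCre RPM, against 0.626 to 0.794 in WT RPM, and 0.0873 to 0.374 in vavCre BMM, against 0.319 to 0.517 in WT BMM. The ratio separated the spleen groups and overlapped between the marrow groups.

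The other endosomal receptors were not called in either tissue. Tlr13, the sensor of bacterial ribosomal RNA, had 1423, 1078 and 837 normalised counts in vavCre spleen libraries, against 1187, 686 and 963 in WT spleen libraries, and its log2 change was 0.24 (95% interval -0.28 to 0.75) in spleen and 0.21 (-0.31 to 0.72) in marrow. Tlr3, the sensor of double-stranded RNA, had 219, 287 and 282 in vavCre spleen libraries, against 206, 88.9 and 189 in WT spleen libraries. Tlr9, the CpG DNA sensor, had 193, 86.5 and 105 in vavCre spleen libraries, against 70.7, 55.7 and 25.6 in WT spleen libraries. The spleen groups of Tlr3 and of Tlr9 did not overlap, but the spread was wide, with log2 changes of 0.78 (-0.23 to 1.79) for Tlr3 and 1.35 (-0.03 to 2.73) for Tlr9 and limma adjusted p of 0.491 and 0.323. In marrow both overlapped, at 0.20 (-0.81 to 1.22) for Tlr3 and 0.79 (-0.58 to 2.17) for Tlr9. In all, 6 of 10 members in spleen and 4 of 10 in marrow had groups that did not overlap, beside 24.0% and 19.8% of all genes tested.

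The endosomal members made up a smaller share of the family's summed level in vavCre macrophages than in WT macrophages of the same tissue. Per kb of exon, Tlr3, Tlr7, Tlr8, Tlr9 and Tlr13 together made up 35.5 to 43.1% of the summed level of the 10 members in vavCre RPM, against 43.6 to 52.4% in WT RPM, and 29.2 to 38.1% in vavCre BMM, against 42.8 to 47.6% in WT BMM; these shares were not tested. The endosomal sum itself overlapped between the groups of each tissue, at 779 to 928 per kb in vavCre RPM, against 731 to 862 in WT RPM, and at 640.0 to 837 in vavCre BMM, against 733 to 816 in WT BMM. The summed level of all 10 members was 1888 to 2214 per kb in vavCre RPM, against 1646 to 1842 in WT RPM, and 2194 to 2319 in vavCre BMM, against 1628 to 1749.5 in WT BMM. In WT RPM the order per kb ran from Tlr4 (387 on average) and Tlr7 (328) through Tlr8 (224), Tlr1 (222), Tlr13 (219.6), Tlr2 (188) and Tlr6 (106) to Tlr3, Tlr9 and Tlr5 (31.0, 14.6 and 2.40); Tlr8, Tlr1, Tlr13 and Tlr2 overlapped with each other. In vavCre RPM the leading member was Tlr2 (441), followed by Tlr7 (380.4), Tlr4 (355) and Tlr1 (341); Tlr7 and Tlr1 overlapped with Tlr2, while Tlr4 (337 to 367) lay below every Tlr2 value (387 to 547). Tlr8 (105) was the sixth. In vavCre BMM Tlr2 (634) came before Tlr1 (430.3), with overlap, and in WT BMM Tlr2 (349) and Tlr7 (345) overlapped, with Tlr4 (313) next.

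**Figure D2:**
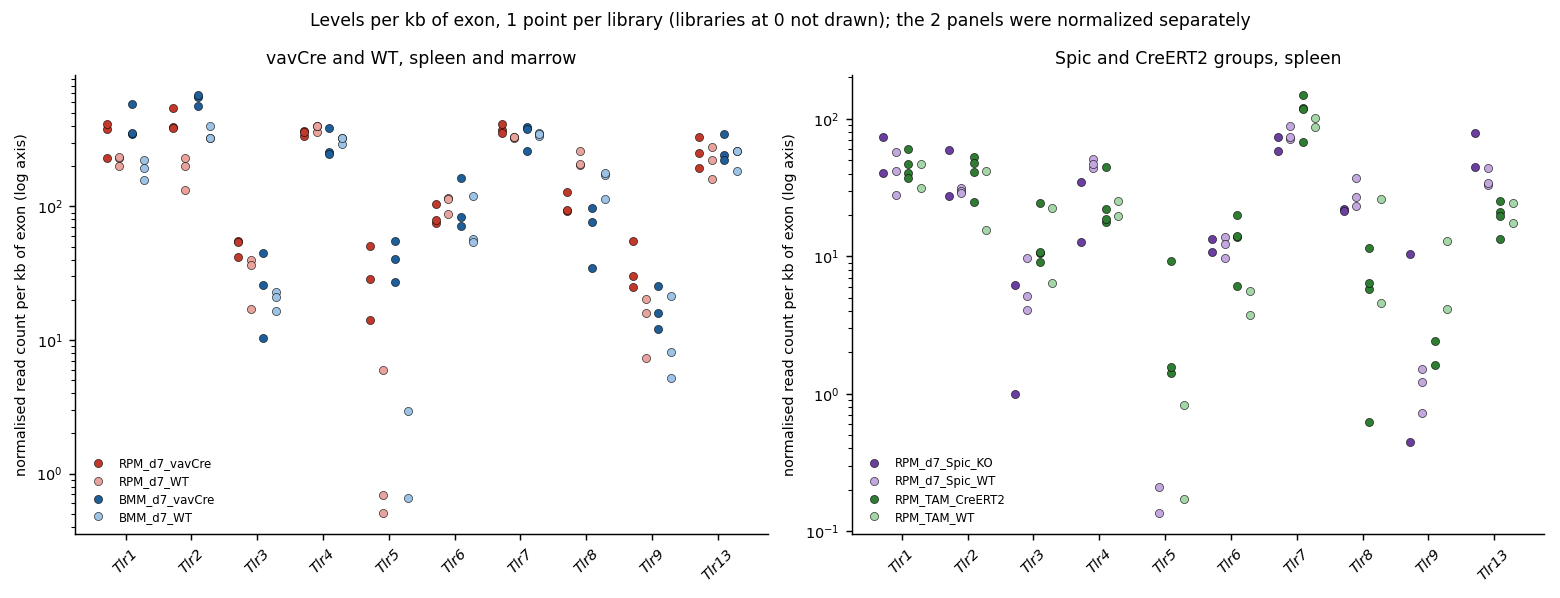
Level per kb of exon (y axis, log scale, normalised read count per kb) of each Toll-like receptor, 1 point per library coloured by group; libraries at 0 are not drawn, and the left and right panels come from tables normalised separately. In the left panel Tlr4, Tlr7 and Tlr13 stay level across groups, Tlr2 reaches 566 to 677 in BMM_d7_vavCre, and Tlr5 drops below 10 in WT libraries.

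The response to vavCre was not shown to differ between tissues for any member. In the test of the difference between the spleen and marrow changes, limma called 0 of 10 members, with 0 at an unadjusted p under 0.05, and edgeR and DESeq2 also called 0, beside 0.119% of genes called by limma. The differences with the widest gap from 0 were those of Tlr5 (-1.45, 95% interval -4.46 to 1.55) and Tlr6 (-0.77, -1.80 to 0.27).

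**Figure D3:**
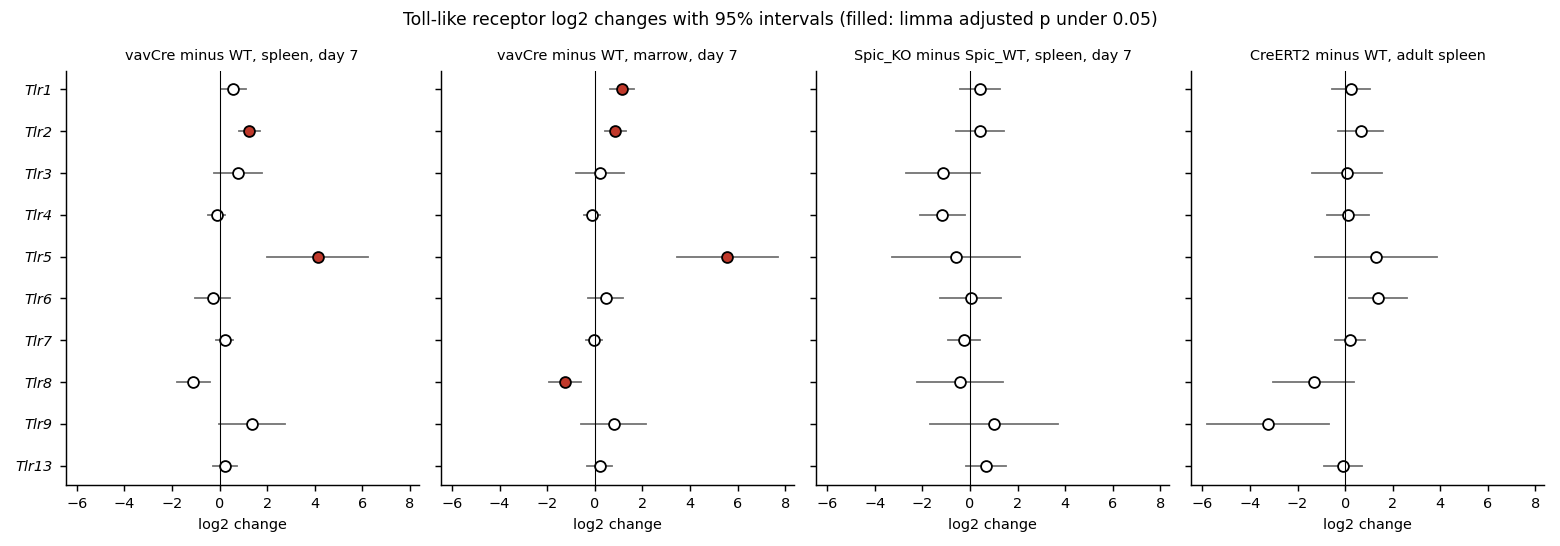
Log2 change (x axis, points) with its 95% interval (lines) for each Toll-like receptor in 4 comparisons from limma: vavCre minus WT in spleen, vavCre minus WT in marrow, Spic_KO minus Spic_WT and CreERT2 minus WT. Filled points passed the adjusted p threshold: 2 in spleen and 4 in marrow for vavCre, and 0 for Spic_KO and CreERT2.

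Markers of other blood cells also differed between these groups. The summed level of 10 neutrophil markers was 2917 to 5837 in vavCre RPM and 646 to 2757 in WT RPM. In spleen 1 of 10 was called higher, with 5 at an unadjusted p under 0.05 and a median log2 change of 2.48. In marrow the sum was 1933 to 2558 in vavCre BMM and 1398 to 4387 in WT BMM, with Elane at 0 in every marrow library. Again 1 was called higher, with 2 at an unadjusted p under 0.05 and a median log2 change of -0.65. Among WT RPM libraries replicate 3 had both the highest neutrophil sum (2757) and the highest Tlr5, while among vavCre RPM libraries replicate 2 had the lowest sum (2917) and the highest Tlr5. In marrow WT replicate 1 had the highest sum (4387) and a Tlr5 of 14.1, the highest of the WT marrow libraries and below the 3 vavCre libraries. These are values of single libraries, and a relation between Tlr5 and the neutrophil markers was not tested. The sum of 6 monocyte markers was 336 to 619.8 in vavCre RPM and 589 to 846 in WT RPM, and 362 to 507 in vavCre BMM and 586 to 830.4 in WT BMM, with 0 called by limma in either tissue (1 at an unadjusted p under 0.05 in each). Plac8 went with the spleen sum, at 47.6 to 409.5 in vavCre RPM and 523 to 659.8 in WT RPM. Not every monocyte marker did so, as the median log2 change of the 6 markers was 0.71 in spleen. In marrow that median was -0.83. The sum of 8 B cell markers was 1138 to 3116 in vavCre RPM and 2677 to 6057 in WT RPM, and 1151 to 2698 in vavCre BMM and 3522 to 9668 in WT BMM, with 1 of 8 called lower in spleen and 2 of 8 in marrow. The sum of 10 erythroid markers was 118128 to 168926 in vavCre RPM and 225756 to 335346 in WT RPM, and 93759 to 136441 in vavCre BMM and 232441 to 343679 in WT BMM, with 7 and 9 of 10 called lower. The sum of 7 red pulp macrophage markers was 135208 to 156037 in vavCre RPM and 181146 to 205330.0 in WT RPM, with 5 called lower and 1 higher, and 75679 to 84282 in vavCre BMM and 119295 to 124758 in WT BMM, with 4 called lower and 1 higher. Of the 6 macrophage markers, whose sums are given above, limma called 2 higher and 2 lower in marrow. In spleen it called 0 of these 6, with 4 at an unadjusted p under 0.05. The sum of 8 dendritic cell markers overlapped in spleen and was 306 to 536 in vavCre BMM and 125 to 260.3 in WT BMM, with 0 called by limma (2 at an unadjusted p under 0.05). The part of these cells or their RNA in the levels of Tlr2, Tlr1, Tlr5 and Tlr8 was not tested.

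Between tissues, Tlr2 was the member that set WT spleen macrophages apart from WT marrow macrophages. Its WT values given above were lower in all 3 RPM libraries than in all 3 BMM libraries, a log2 difference of -0.93 ± 0.21 (limma adjusted p = 0.0164), and 1 of 10 members was called, beside 3.89% of genes. The call was lost without WT RPM replicate 1 (-0.69, adjusted p = 0.101) or WT BMM replicate 1 (-0.83, 0.0828). In the same WT libraries Tlr4 (0.31, 95% interval -0.04 to 0.65) and Tlr8 (0.55, -0.13 to 1.23) lay higher in spleen and Tlr7 (-0.07, -0.42 to 0.28) lower, without overlap and without a call; together with Tlr2, 4 of 10 members did not overlap, beside 20.6% of genes. Among vavCre libraries Tlr2 was again lower in spleen without overlap (-0.54, -0.98 to -0.10; limma adjusted p = 0.197), as 1 of 10 members, beside 19.5% of genes. Between vavCre spleen and vavCre marrow limma called 0 of 10 members (3 at an unadjusted p under 0.05), as did edgeR and DESeq2, beside 3.50% of genes.

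Genes with the most similar profiles were sought for the 4 members called in a vavCre comparison, by the mean absolute difference of centred log2 values over the 12 libraries among 10437 genes. The 3 nearest to Tlr1 were Use1 (0.16), Nrros (0.18) and Plekho2 (0.19). The nearest to Tlr2 were Cstb (0.19), B3gnt2 (0.19) and Marcksl1 (0.21); Marcksl1 averaged 602 in vavCre RPM and 214 in WT RPM, and 817 in vavCre BMM and 441 in WT BMM. The nearest to Tlr8 were Acvrl1 (0.23), Ift140 (0.23) and Selplg (0.24); Selplg averaged 1617 in vavCre RPM and 3508 in WT RPM, and 1046 in vavCre BMM and 2648 in WT BMM. Tlr5 lay farther from its nearest genes, Ednrb at 0.79, Dnm1 at 1.01 and Tox2 at 1.03. Its WT values rest on few reads (4, 4 and 63 in spleen, 7, 0 and 3 in marrow). Counting error there adds to its distance from any gene, so its distances are not on a par with those of the others. Ednrb, an endothelin receptor, averaged 1149 in vavCre RPM and 28.4 in WT RPM, and 2189 in vavCre BMM and 74.9 in WT BMM. These are distances over libraries that share group structure, and they were not tested.

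Of 69 other genes that act with Toll-like receptors, 5 rose and 4 fell in vavCre spleen macrophages and 6 rose and 2 fell in vavCre marrow macrophages, by limma, beside 5.52% and 7.81% of all genes called in either direction; their median log2 change was 0.16 and 0.19, against -0.02 and -0.04 over all genes. The 5 adaptors, Myd88, Tirap, Ticam1, Ticam2 and Sarm1, had 0 calls in either tissue, with 1 in spleen and 0 in marrow at an unadjusted p under 0.05. Among 7 co-receptors and accessory proteins, Ly86 (MD-1, the partner of CD180) and Lbp (lipopolysaccharide binding protein) rose in spleen and Cd36, a scavenger receptor that assists TLR2 with TLR6, fell. Ly86 averaged 5846 ± 496 in vavCre RPM and 2918 ± 357 in WT RPM (SD, n = 3 each), a log2 change of 1.01 (limma adjusted p = 0.000679), and changed by 1.05 in marrow (0.000437). Lbp averaged 121 ± 34.6 in vavCre RPM and 5.0 ± 2.96 in WT RPM, a log2 change of 4.47 (limma adjusted p = 0.00424), and by 2.28 in marrow without a call (0.150). Cd36 averaged 712 ± 127 in vavCre RPM and 2755 ± 37.2 in WT RPM, a log2 change of -1.96 (limma adjusted p = 6.4e-05), and fell by 2.16 on the log2 scale in marrow (2.7e-05).

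Among 16 chaperones, proteases and nucleases that serve the endosomal receptors, Pld3, an endolysosomal exonuclease that degrades single-stranded DNA and RNA, was the gene with the smallest p in both tissues, and fell in both. It averaged 8321 ± 29.1 in vavCre RPM and 18230.0 ± 2386 in WT RPM (SD, n = 3 each), and 6507 ± 216 in vavCre BMM and 19383 ± 2627 in WT BMM. Its log2 change was -1.12 in spleen (limma adjusted p = 1.7e-06) and -1.57 in marrow (2.0e-08). Slc15a3, an endolysosomal peptide and histidine transporter, fell in spleen (-1.55, limma adjusted p = 0.000139), and Ctsl, a protease that processes endosomal receptors, rose in both (0.49 and 0.69; 0.0211 and 0.00123). In marrow Hsp90b1 (gp96, a chaperone of many TLRs), Pld4 and Cnpy4 also rose, by 0.43, 0.58 and 1.14 on the log2 scale (limma adjusted p = 0.00548, 0.0214 and 0.0466). Unc93b1, the transport partner of the endosomal receptors, was not called in either tissue. In all, 1 rose and 2 fell of the 16 in spleen, and 4 rose and 1 fell in marrow, beside the 5.52% and 7.81% of all genes.

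Downstream, 1 of 14 kinases and ubiquitin ligases was called in each tissue, beside 5.52% of all genes in spleen and 7.81% in marrow. Ikbke (IKKε) averaged 243 ± 37.1 in vavCre RPM and 105 ± 15.9 in WT RPM, and 756 ± 251 in vavCre BMM and 285 ± 12.3 in WT BMM (SD, n = 3 each). It rose by 1.21 in spleen (limma adjusted p = 0.0213) and by 1.35 in marrow (0.00832). Of 5 transcription factors, Nfkb1 fell in spleen by 0.83 on the log2 scale (limma adjusted p = 0.00187), and 0 were called in marrow, with 1 at an unadjusted p under 0.05. The 10 negative regulators had 0 calls in either tissue, with 1 in spleen and 2 in marrow at an unadjusted p under 0.05. Of 10 cytosolic nucleic acid and NOD sensors, Ddx58 (RIG-I) rose in spleen by 0.79 on the log2 scale (limma adjusted p = 0.0361). The 2 other receptors of the family in these tables, Tlr11 and Tlr12, were not called in either tissue. In the test of the difference between tissues limma called 0 of the 69 genes, with 5 at an unadjusted p under 0.05.

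**Figure D4:**
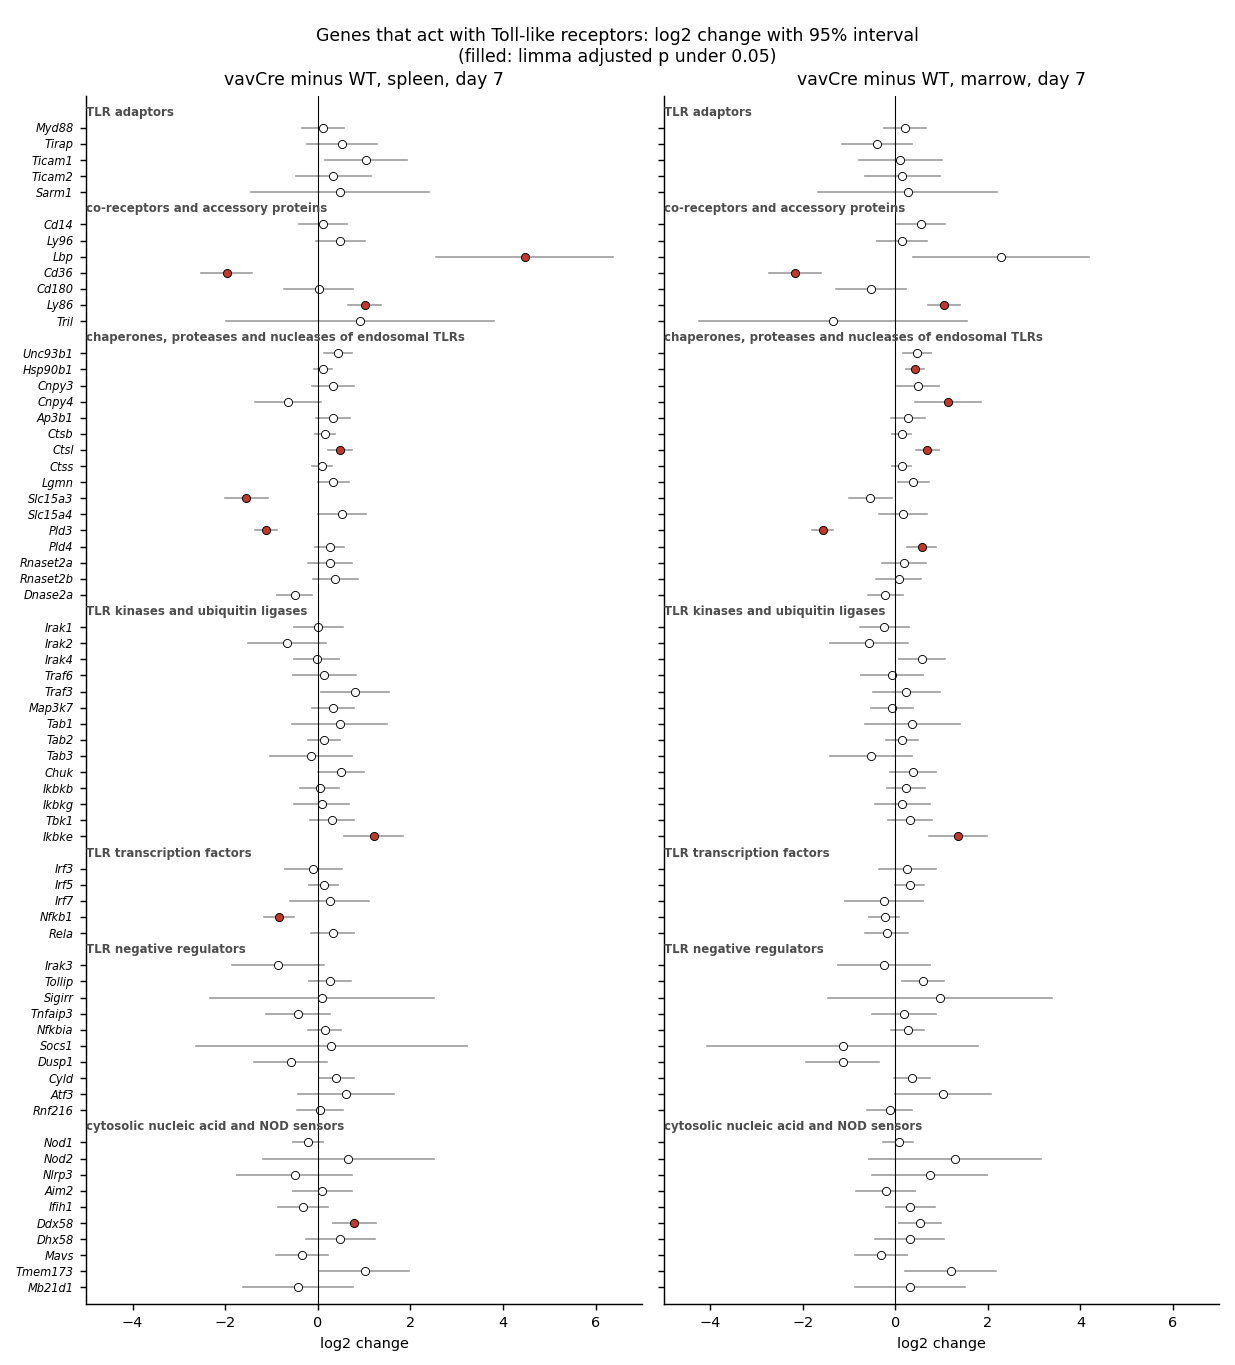
Log2 change of vavCre minus WT (x axis) with its 95% interval for genes that act with Toll-like receptors, grouped by role, in spleen (left) and marrow (right); filled points passed limma's adjusted p threshold. Cd36 and Pld3 lie to the left and Ly86, Ctsl and Ikbke to the right of 0 in both panels, and the adaptors have no filled point.

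In Spic_KO red pulp macrophages no member passed the test, and the 2 Spic_KO libraries differed from each other at several members. Limma called 0 of 10 members (1 at an unadjusted p under 0.05), as did edgeR and DESeq2, beside 3.95% of 16650 genes. Tlr4 had 193 and 70.4 normalised counts in Spic_KO libraries, against 284, 245 and 260.0 in Spic_WT libraries. Both Spic_KO libraries lay below every Spic_WT library, replicate 2 far below, and the log2 change was -1.16 ± 0.45 (limma adjusted p = 0.156). With Spic_KO replicate 2 as the only Spic_KO library, assumed to vary like the others, the change was -1.88 and passed (limma adjusted p = 0.0167), and with replicate 1 alone it was -0.44 (0.817). Tlr13 had 191 and 339 in Spic_KO libraries, against 143, 188 and 148 in Spic_WT libraries (0.68, 95% interval -0.17 to 1.53), and Tlr8 had 78.6 and 76.1 in Spic_KO libraries, against 134, 82.7 and 97.4 in Spic_WT libraries (-0.40, -2.21 to 1.40). Those were the 3 of 10 members without overlap, beside 34.2% of genes.

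Other members split the 2 Spic_KO libraries. Tlr1 had 245 and 134 normalised counts and Tlr2 had 179.7 and 82.3 in Spic_KO replicates 1 and 2, against 93.9 to 194 for Tlr1 and 87.1 to 95 for Tlr2 in Spic_WT libraries. Tlr3 had 32 and 5.17, against 21.0 to 50.5 in Spic_WT libraries. In each of these replicate 1 was the higher of the Spic_KO pair. Tlr9 had 36.0 in Spic_KO replicate 1 and 1.55 in replicate 2, against 2.53, 5.26 and 4.21 in Spic_WT libraries. The B cell markers Pax5 (33.0 and 1.03) and Ms4a1 (87.1 and 10.3) were also higher in Spic_KO replicate 1 than in replicate 2, against 1.40 to 3.88 for Pax5 and 10.7 to 28.0 for Ms4a1 in Spic_WT libraries. Not every marker split this way: Cd79b, the most abundant of the 8, was 307 and 339 in Spic_KO replicates 1 and 2, against 438 to 605 in Spic_WT libraries. The sum of 8 B cell markers was 519 to 607 in Spic_KO and 474 to 660.3 in Spic_WT libraries, with Igll1 at 0 in both Spic_KO libraries and 2 of 8 markers called higher. Sums of other lists separated the groups: 6 macrophage markers at 5742 to 5927 in Spic_KO and 7903 to 10971 in Spic_WT libraries (2 called lower), 7 red pulp macrophage markers at 10369 in both Spic_KO libraries and 19749 to 28732 in Spic_WT libraries (4 called lower), and 8 dendritic cell markers at 155 to 175 in Spic_KO and 43.1 to 74.3 in Spic_WT libraries (0 called by limma, 1 at an unadjusted p under 0.05). The sum of 8 T and NK cell markers was near 0 in both groups, at 0.501 to 0.517 in Spic_KO and 1.52 to 7.12 in Spic_WT libraries. The part of these cells in the Tlr4, Tlr9 and other values was not tested. Tlr5 had 0 reads in both Spic_KO libraries, which allows up to 3 reads or a value of 1.5 and 1.55, and 4, 0 and 2 reads in Spic_WT libraries, so no difference was detectable at this depth. Tlr6 (0.03, -1.26 to 1.32) and Tlr7 (-0.24, -0.91 to 0.42) overlapped.

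**Figure D5:**
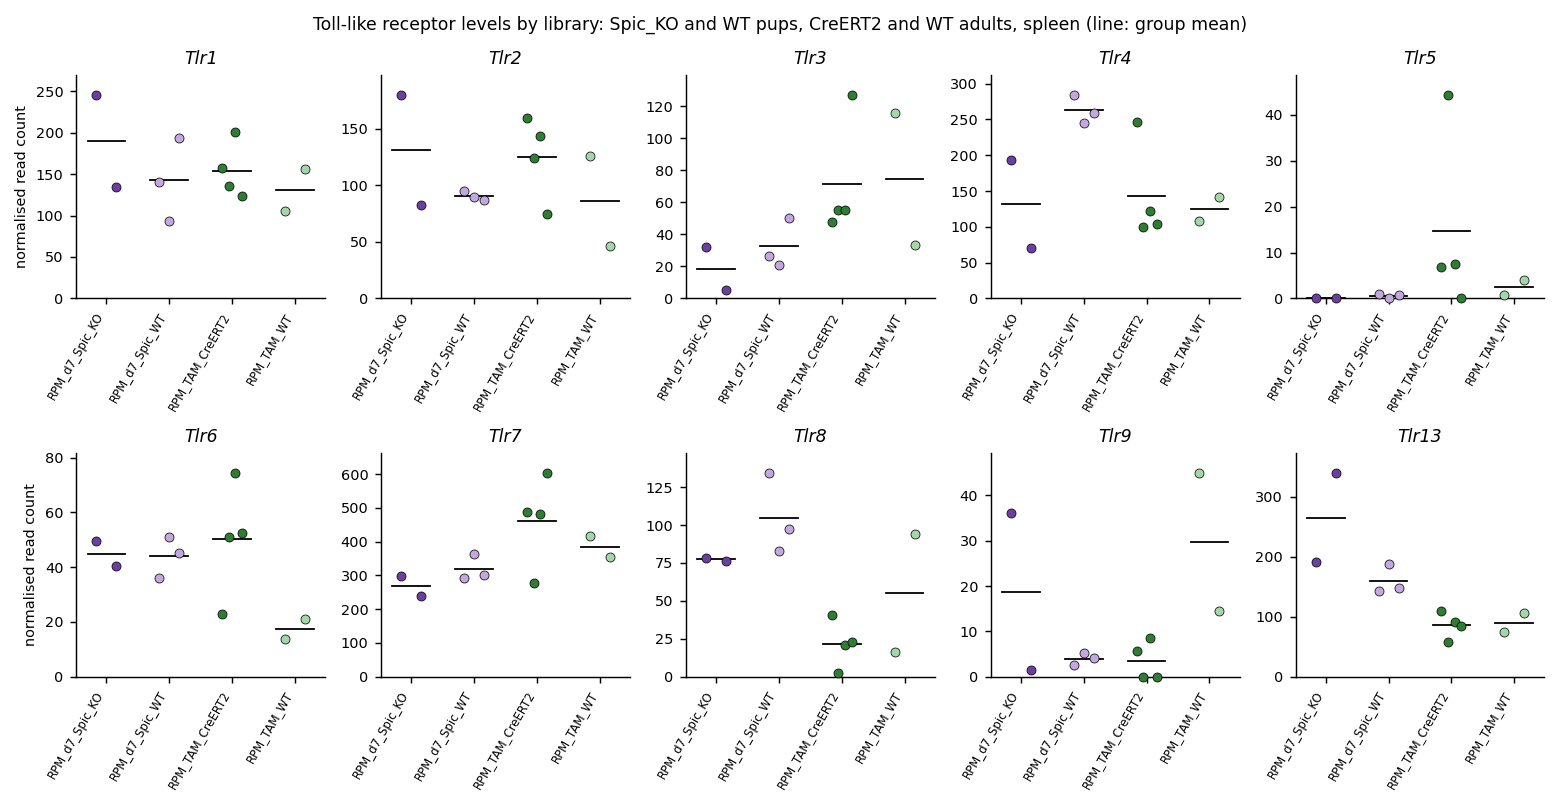
Normalised read count (y axis, from 0) of each Toll-like receptor in each library of RPM_d7_Spic_KO, RPM_d7_Spic_WT, RPM_TAM_CreERT2 and RPM_TAM_WT; points are libraries and lines are group means of 2, 3, 4 and 2 libraries. Tlr4 lies lower in both Spic_KO libraries than in Spic_WT libraries, and Tlr9 lies at 0 to 8.47 in CreERT2 libraries and at 14.5 and 44.9 in TAM_WT libraries.

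Around the receptors, 3 of the 69 other genes rose and 5 fell in Spic_KO macrophages, beside 3.95% of all genes. Cd14, which hands lipopolysaccharide to TLR4, averaged 32.3 ± 1.11 in Spic_KO libraries (SD, n = 2) and 212 ± 87.6 in Spic_WT libraries (SD, n = 3), and its log2 change was -2.60 (limma adjusted p = 0.000271). Ly86 averaged 207 ± 52.4 in Spic_KO libraries and 611 ± 20 in Spic_WT libraries (-1.58, limma adjusted p = 0.00145). Cd36 averaged 1432 ± 521 in Spic_KO libraries and 265 ± 51.6 in Spic_WT libraries (2.40, limma adjusted p = 0.00182). Ly86 and Cd36 thus moved in the opposite direction to the vavCre spleen comparison; the difference between those comparisons, which come from separate tables, was not tested. Tlr12, an endosomal receptor for profilin, averaged 125 ± 51.1 in Spic_KO libraries and 19.6 ± 8.38 in Spic_WT libraries (2.63, limma adjusted p = 0.0264). Of the 16 processing genes, Hsp90b1 rose (0.79, limma adjusted p = 0.0361) and Rnaset2a, Rnaset2b and Ctss fell (-1.47, -1.38 and -0.76; 0.0324, 0.0448 and 0.0399); Rnaset2a and Rnaset2b are near-identical copies, so how reads were split between them is uncertain. The adaptors, kinases, transcription factors, negative regulators and cytosolic sensors had 0 calls by limma, with 0, 2, 3, 1 and 3 genes at an unadjusted p under 0.05.

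In adult CreERT2 red pulp macrophages limma again called 0 of 10 members (2 at an unadjusted p under 0.05), as did edgeR and DESeq2, beside 0.144% of 16650 genes. Tlr9 had 5.68, 0, 8.47 and 0 normalised counts in CreERT2 replicates 1, 2, 4 and 5, against 44.9 and 14.5 in TAM_WT replicates 1 and 3. The groups did not overlap, and the log2 change was -3.24 ± 1.23 (limma adjusted p = 0.540). The sum of 8 B cell markers was 464 to 561 in CreERT2 libraries and 917 to 1018 in TAM_WT libraries, also without overlap, with Pax5 at 25.7 to 40.9 in CreERT2 and 87.2 and 147 in TAM_WT libraries; no marker of the 8 was called by limma (2 at an unadjusted p under 0.05). Other sums without overlap were those of 10 erythroid markers, 195217 to 357784 in CreERT2 and 117021 to 169813 in TAM_WT libraries (2 called higher), 6 monocyte markers, 143 to 376 in CreERT2 and 408 to 420.3 in TAM_WT libraries (0 called by limma, 1 at an unadjusted p under 0.05), 8 T and NK cell markers, 28.8 to 47.0 in CreERT2 and 51.7 to 58.0 in TAM_WT libraries (0 called by limma, 1 at an unadjusted p under 0.05), and 6 endothelial and stromal markers, 66.5 to 98.8 in CreERT2 and 13.1 to 60.8 in TAM_WT libraries (0 called by limma, 0 at an unadjusted p under 0.05). The markers of a list did not all go with its sum. The median log2 change was -0.48 over the erythroid, -0.12 over the monocyte, 0.11 over the T and NK cell and 0.99 over the endothelial and stromal markers. Ly6c2, a monocyte marker, was 27.3 to 68.7 in CreERT2 libraries and 3.27 and 23.5 in TAM_WT libraries. The part of these cells in Tlr9 and Tlr6 was not tested. Tlr6 had 22.7, 51.0, 74.3 and 52.6 in CreERT2 libraries, against 13.9 and 21.0 in TAM_WT libraries, higher in all 4 (1.39 ± 0.59, limma adjusted p = 0.60). These were the 2 of 10 members without overlap, beside 13.7% of genes.

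Tlr8 had 40.9, 2.22, 20.7 and 23.1 normalised counts in CreERT2 libraries, against 16.3 and 94.4 in TAM_WT libraries, whose own spread was wide (-1.32, 95% interval -3.03 to 0.39). Tlr2 had 159, 124, 144 and 74.5 in CreERT2 libraries, against 126 and 46.7 in TAM_WT libraries (0.65, -0.32 to 1.61). Tlr4 (0.10, -0.78 to 0.99), Tlr7 (0.22, -0.41 to 0.84), Tlr13 (-0.09, -0.90 to 0.71), Tlr1 (0.24, -0.57 to 1.04) and Tlr3 (0.08, -1.41 to 1.56) overlapped as well. Tlr5 had 6, 20, 8 and 0 reads in CreERT2 libraries, against 1 and 11 reads in TAM_WT libraries. The intervals of Tlr2 and Tlr8 include changes of the size that vavCre spleen libraries showed for these genes, so the 6 adult libraries do not separate such changes from 0. Limma called 0 of the 69 other genes, with 10 at an unadjusted p under 0.05, beside 0.144% of all genes called.

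Between adult TAM_WT and Spic_WT pup libraries, which differ at once in age, in the TAM label and in control line, limma called 0 of 10 members (2 at an unadjusted p under 0.05), as did edgeR and DESeq2, beside 3.42% of genes. Tlr4 had 109 and 141 normalised counts in adult libraries, against 284, 245 and 260.0 in pup libraries (-1.08 ± 0.45, limma adjusted p = 0.228). Tlr6 (-1.31, 95% interval -2.60 to -0.02) and Tlr13 (-0.82, -1.67 to 0.02) also lay lower in adults without overlap. Tlr9 had 44.9 and 14.5 in adult libraries, against 2.53, 5.26 and 4.21 in pup libraries (2.45, -0.25 to 5.15), beside B cell marker sums of 917 to 1018 in adult and 474 to 660.3 in pup libraries, with 4 of 8 markers called higher. Cd79b, 1 of the 8, went the other way, at 183 and 221 in adult and 438 to 605 in pup libraries. Other sums without overlap were those of 6 monocyte markers, 408 to 420.3 in adult and 29.3 to 107 in pup libraries (1 called higher), 8 dendritic cell markers, 178 to 319 in adult and 43.1 to 74.3 in pup libraries (1 called higher), 8 T and NK cell markers, 51.7 to 58.0 in adult and 1.52 to 7.12 in pup libraries (1 called higher), and 10 erythroid markers, 117021 to 169813 in adult and 78484 to 109218 in pup libraries (2 called higher). Not every erythroid marker went with its sum, as the median log2 change over the 10 was -0.25. The sum of 10 neutrophil markers was 121 to 1027 in adult and 64.2 to 113 in pup libraries (0 of 9 tested called by limma, 2 at an unadjusted p under 0.05), and that of 6 macrophage markers 5480.5 to 7839 in adult and 7903 to 10971 in pup libraries (2 called lower). The part of these cells in the members' values was not tested. These were 4 of 10 members without overlap, beside 37.6% of genes. Per kb of exon, Tlr7 was the leading member in every CreERT2, TAM_WT and Spic_WT library, at 94.1 on average in TAM_WT and 78.0 in Spic_WT libraries. In Spic_KO libraries it led by the mean only: Tlr1 (73.3) and Tlr7 (73.2) were about level in replicate 1, and Tlr13 (78.7) lay above Tlr7 (58.4) in replicate 2. Of the 69 other genes 0 rose and 6 fell in adults, beside 3.42% of all genes, 5 of them processing genes of the endosomal receptors: Ctsl (-1.31, limma adjusted p = 0.00708), Rnaset2b (-1.81, 0.00936), Pld4 (-1.25, 0.0211), Ctss (-0.77, 0.0409) and Pld3 (-0.90, 0.0489). The sixth was Nod1, a sensor of bacterial peptidoglycan, at 94.4 ± 61.9 in adult libraries (SD, n = 2) and 376 ± 34.2 in pup libraries (SD, n = 3), and its log2 change was -2.15 (limma adjusted p = 0.0103).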

How the data were processed

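RNA was measured in 23 libraries of 1000 sorted macrophages, whose cDNA was made from an oligo-dT primer, expanded by PCR and turned into libraries with Nextera XT, per the labels' protocols. The submitters' processing notes name STAR, edgeR and GRCm38; their roles, versions and strand setting are not given in the sources used here. The authors deposited 2 tables of normalised read counts (a signal per gene, not raw counts). In every library the deposited values were whole multiples of 1 step, and 96.6 to 100.0% of values up to 500 reads came out whole within 0.1 read. The recovered reads, 692904 to 21744211 per library, served as depth and for count tests. Shallow libraries give less precise values, and floors of 3 reads cover counting error only.

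Each table was fitted with limma 3.58.1 (R 4.3.3; trend, robust) on log2(value + 1) over all its libraries, for genes at 1 or more in at least 2 libraries (15130 and 16650 genes), with Benjamini-Hochberg adjustment and a threshold of 0.05; residual degrees of freedom were 8 and 7. The 8 comparisons were vavCre against WT in each tissue, their difference, spleen against marrow in WT and in vavCre, Spic_KO, CreERT2, and adult against pup controls. Alternatives were no filter, a minimum of 10, pseudocounts of 0.1 and 5, edgeR 4.0.16 with TMM and DESeq2 1.42.0 on recovered reads, the replicate number as a block, and leaving out each library. The fit was also run on simulated reads with known changes, and the outcome of that run is not given here. Same-numbered libraries of compared groups did not deviate together (correlations of -0.04 to 0.06), so numbers were not taken as pairs. Within groups no library duplicated another, and libraries of different groups were not compared for duplication.

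Levels per kb used summed exon length from GENCODE vM21. All 10 members are named throughout. For 69 further genes in 8 lists, the rule was to name up to 3 called genes with the smallest p per list and genotype comparison. The adult and pup calls, the adaptors by name and Unc93b1 were added after their values were seen. So were the tests of Ly86, Lbp and Ctsl in the other tissue. Also named beyond the rule were Pld4 and Cnpy4 in marrow, Rnaset2b for Spic_KO, and Tlr11 and Tlr12 for vavCre. Nearest profiles were sought among tested genes with a mean of at least 20. Members, lists and motifs were chosen with earlier results of these data known.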

Additional observations from a re-analysis of the deposited data

Results flagged for a closer look

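CreERT2 was the one group of 4 libraries, so it alone was searched for a library far from the others, for each of the 10 members; chance marks about 1 in 20 such groups. In 3 of 10 members the highest CreERT2 library stood apart, each time a different one. Tlr3 was 127 in replicate 5, against 47.7 to 55.5 in the other CreERT2 libraries. Tlr4 was 246 in replicate 1, against 99.7 to 122 in the others. Tlr5 was 44.3 in replicate 2, the shallowest library, where that value is 20 reads, against 0 to 7.53 in the others. Between spleen and marrow the vavCre changes differed for no member by the test of the difference itself.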

How the results depend on the processing

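Across the alternatives 1067 member values were recomputed: 1052 kept their direction and side of the threshold, 11 lost a call, 4 gained one and 0 reversed, while 45 values that were never called changed sign. The count of members called in spleen for vavCre (2) was 1 with a pseudocount of 0.1, where Tlr5 was lost, 3 with edgeR, DESeq2 or the stricter filter, which added Tlr8, and 1 to 2 when single libraries were left out. In marrow the count (4) was 2 to 4 without single libraries and 4 otherwise. Between WT tissues (1) it was 0 to 1 without single libraries. For Spic_KO (0) it was 0 to 1, the 1 being Tlr4 without Spic_KO replicate 1, which leaves 1 Spic_KO library. The cause was not tested. The counts of the other 4 comparisons stayed at 0. With the replicate number as a block, the members called were still 2 in vavCre spleen, 4 in vavCre marrow, 1 between WT tissues and 0 in the difference between tissues, between vavCre tissues, for Spic_KO and for adult against pup. No paired analysis was possible for CreERT2 because CreERT2 and TAM_WT share only replicate number 1.

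Over all genes, calls for Spic_KO numbered 658 by limma, 219 with the block, 1694 by DESeq2 and 261 to 1972 without single libraries. For adult against pup they numbered 569, 290 with the block, 1259 by DESeq2 and 44 to 727 without single libraries. DESeq2 called 1290 genes for vavCre in spleen (835 by limma), 93 for the tissue difference (18), where edgeR called 31 and no filter left 11, 952 between WT tissues (588), 950 between vavCre tissues (529) and 130 for CreERT2 (24, with 5 unfiltered, 14 and 9 at pseudocounts 0.1 and 5). With DESeq2 the split of higher and lower calls became 68 and 25 for the tissue difference (17 and 1 by limma), 907 and 787 for Spic_KO (245 and 413 by limma), 755 and 504 for adult against pup (260 and 309), and 586 and 364 between vavCre tissues (405 and 124). Depth limits the CreERT2 libraries most, at 692904 to 1668714 reads, where Tlr5 rests on 0 to 20 reads and Tlr9 on 0 to 9.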
